A study of Mus musculus with 14 samples.

Results

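Mouse bone marrow cells sorted as long-term hematopoietic stem cells (LT-HSC, lineage-negative Kit+ Sca-1+ CD34-) were set against multipotent progenitors (MPP, the CD34+ cells of the same Kit+ Sca-1+ gate). The arrays were chosen by their labels alone: 2 LT-HSC and 2 MPP samples from Dnmt1fl/fl mice without the Mx-Cre transgene, 4 arrays of 14 in the series. The other 10 arrays held 4 Kit+ Sca-1+ samples of Dnmt1fl/fl Mx-Cre+ littermates, called knockout here, and 6 myeloid progenitor samples, 3 without and 3 with Mx-Cre. Mx-Cre is an interferon-inducible recombinase. All mice, controls included, carried the loxP-flanked Dnmt1 alleles on a C57BL/6 background, were 8 to 12 weeks old, and had received 7 injections of poly(I)poly(C), a double-stranded RNA mimic that induces interferon, at 25 ug/kg. Marrow was collected 4 days later and pooled from 4 to 6 mice per sample, so that an array is the mean of a pool and 2 arrays a group are all the replication there is. RNA was amplified before hybridisation to the Affymetrix array. The values are deposited intensities, and a difference is on the scale of log2(intensity + 16) after quantile normalization.

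In adult mouse marrow, long-term reconstituting stem cells lie in the CD34-negative fraction of Kit+ Sca-1+ cells. Their CD34-positive progeny lose lasting self-renewal and begin to express receptors and transcription factors of the blood lineages. Commitment to granulocytes and monocytes brings in granule proteases under C/EBP factors, and commitment to the B lineage brings in Ebf1, Pax5 and the surrogate light chain of the pre-B cell receptor. The comparison asks which transcripts marked the step between these sorted fractions in mice with intact Dnmt1.

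Of 12393 genes with a probe set, 8608 passed the filter on dim values and were tested. At a Benjamini-Hochberg adjusted p below 0.05, 200 genes (2.32%) differed, 98 of them (1.14%) higher in LT-HSC and 102 (1.18%) lower, in a limma fit whose spread was estimated over all 14 arrays. The count depended on which arrays supplied the spread and on each array of the comparison. With the LT-HSC and MPP arrays alone, controls and knockouts, 11 genes passed, and with control arrays alone 88. Without LT-HSC array 1 the count was 78, without LT-HSC array 2 it was 422, without MPP array 1 it was 85 and without MPP array 2 it was 97. All 200 kept their direction in these 4 fits, but only 29 passed in all 4, of which 18 were higher and 11 lower in LT-HSC. The descriptions lead with those 29. Each of the 4 fits reused arrays that had chosen the 200 genes, so the kept direction is not a test of its own.

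LT-HSC array 1 stood apart. Its correlation with LT-HSC array 2 over the genes was 0.907, whereas LT-HSC array 2 correlated with MPP arrays 1 and 2 at 0.908 and 0.932, and the MPP arrays correlated at 0.935 with each other. The ratio of the 3' to the 5' Gapdh control probe sets, which is raised when RNA or its copies are short, was 5.44 on LT-HSC array 1 and between 2.44 and 3.07 on the other 3 arrays of the comparison. High ratios were not particular to that array: LT-HSC knockout array 1 read 5.15, against 2.46 to 2.66 on the other knockout LT-HSC and MPP arrays, and control myeloid progenitor arrays 1 and 2 read 5.27 and 4.3. The corresponding Actb ratio was not raised on LT-HSC array 1. There it was 0.808, the lowest of the 4 arrays of the comparison, of which the highest read 1.1. LT-HSC knockout array 1 read 0.754, and control myeloid progenitor arrays 1 and 2 read 1.18 and 0.921. Array medians in the series lay between 41.1 and 49.1, and the part of these differences in the results was not tested.

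The sort marker separated the fractions. Cd34, the sialomucin used in the sort, read 7.55 and 96.8 on LT-HSC arrays 1 and 2 and 1021 and 748 on MPP arrays 1 and 2. Its log2 difference was -4.17 ± 0.60 (SE, n = 2 against 2; adjusted p = 0.00366), and its adjusted p stayed at or below 0.0324 when any of the 4 arrays was left out. Kit, the stem cell factor receptor that both gates required, read 227 and 488 against 883 and 449, with overlapping groups and a difference of -0.88 ± 0.39 (adjusted p = 0.308). Flt3, the cytokine receptor that marks the later multipotent progenitors, read 124 and 65.5 in LT-HSC against 814 and 399 in MPP. The groups did not overlap, as for 39.9% of all genes tested, and the difference of -2.45 ± 0.71 missed the threshold (adjusted p = 0.101). Ly6a, which encodes Sca-1, was not analysed here.

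The largest group higher in LT-HSC was made of genes of early B-cell development. Of 27 pro-B and pre-B genes tested, 18 (66.7%) were called higher in LT-HSC, against 1.14% of all genes tested, and none lower. This list, like the granule and erythroid lists, was chosen with earlier results of these data known, so that its share is a description and not a test. The median difference of the list was 2.67, against -0.01 for all genes. Over the 4 pairings of an LT-HSC with an MPP array the median ran from 1.89 to 3.14. With a pseudocount of 64 in place of 16 the median was 1.60, since most MPP values lie near the floor. Of the 18, 10 passed in each of the 4 fits that left out an array: Cd79a, Ebf1, Pax5, Blnk, Blk, Vpreb3, Lef1, Bst1, Foxo1 and Bach2. Without LT-HSC array 1 or without MPP array 2, 10 members of the list were called, without LT-HSC array 2 there were 18, and without MPP array 1 there were 15. Bcl7a, a chromatin remodelling subunit called at an adjusted p of 0.0448, passed in none of these 4 fits (0.0547 to 0.242) and lost its call with littermate pools as a random block (0.0611).

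Cd79a encodes the signalling chain Ig-alpha of the B-cell receptor. Its intensity was 1682 and 559 on LT-HSC arrays 1 and 2 and 19.0 and 4.14 on the MPP arrays, a difference of 5.30 ± 0.78 (adjusted p = 0.00416). Both LT-HSC arrays were far above both MPP arrays, whose values were near the floor of the array. Ebf1, which opens the B-lineage programme, read 658 and 264 in LT-HSC and 10.3 and 5.47 in MPP, with a difference of 4.24 ± 0.61 (adjusted p = 0.00382). Pax5, the B-lineage commitment factor, read 817 and 346 against 29.6 and 6.26, with a difference of 4.15 ± 0.57 (adjusted p = 0.00342). Blnk, the adaptor downstream of the pre-B cell receptor, read 864 and 276 against 13.6 and 17.1 and differed by 4.11 ± 0.52 (adjusted p = 0.00197). For each of these 4 genes LT-HSC array 1 was the higher of the pair. Blnk was called under all 16 processing alternatives tried.

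Lef1 encodes a Wnt-responsive factor also present in pro-B cells. It read 193 and 101 in LT-HSC and 3.91 and 3.14 in MPP (difference 2.99 ± 0.32, adjusted p = 0.000753). Foxo1, which drives Rag gene expression in pro-B cells, read 1025 and 418 against 95.3 and 63.5 (2.89 ± 0.41, adjusted p = 0.00366). Blk, a Src-family kinase of B cells, read 164 and 69.8 against 5.50 and 2.08 (2.67 ± 0.40, adjusted p = 0.00463). The spread between the LT-HSC arrays, though not between the MPP arrays, was small for Vpreb3, at 182 and 187 against 28.8 and 12.5 (2.51 ± 0.38, adjusted p = 0.00517). Bst1, an ectoenzyme named for bone marrow stroma and present on early B cells, also had a narrow spread within the LT-HSC pair only. It read 159 and 156 against 16.3 and 4.51 (2.79 ± 0.36, adjusted p = 0.00197). Bach2, a transcriptional repressor of B cells, read 67.8 and 76.5 against 12.4 and 11.1 (1.71 ± 0.27, adjusted p = 0.00747). Ccnd3, the D-type cyclin that dividing pre-B cells rely on and a member of the list of G1 regulators, read 1276 and 566 against 201 and 180 (2.14 ± 0.35, adjusted p = 0.00805).

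The surrogate light chain and recombinase genes had large differences, but several of their calls were lost when a single array was left out. In the 4 fits without an array the Igll1 difference stayed between 5.12 and 6.30 and the Rag1 difference between 3.35 and 4.22. Igll1, which encodes lambda 5, read 3275 and 1978 in LT-HSC and 61.4 and 16.8 in MPP, the largest positive difference of all genes tested at 5.71 ± 1.01 (adjusted p = 0.0128). Its adjusted p was 0.0873 without LT-HSC array 1 and 0.0732 without MPP array 2. Its probe set may also take up related sequences, and a more specific Igll1 probe set differed by 2.75. Vpreb1, the partner of lambda 5, read 4729 and 3010 against 342 and 73.9 and missed the threshold (4.50 ± 1.18, adjusted p = 0.0701); with littermate pools as a random block its adjusted p was 0.0405. Rag1 and Rag2 encode the recombinase. Rag1 read 494 and 291 against 22.8 and 6.12 (3.79 ± 0.64, adjusted p = 0.00975; 0.0775 without LT-HSC array 1 and 0.0630 without MPP array 2). Il7r, the interleukin-7 receptor chain, read 1209 and 406 against 92.5 and 24.9 (3.47 ± 0.69, adjusted p = 0.0206; 0.167 without LT-HSC array 1 and 0.128 without MPP array 2).

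Genes of lymphoid priming gave fewer calls, where 1.14% of all genes tested were called higher. Of 15 such genes, 4 (Il7r, Rag1, Rag2 and Tcf3, of which the first 3 are also in the pro-B list) were called higher, and the median was 0.36. Without LT-HSC array 1 or MPP array 2 none was called, and the median was 0.01 and -0.06. Dntt, the terminal transferase of early lymphoid progenitors, read 2480 and 1563 in LT-HSC and 2124 and 753 in MPP, with overlapping groups (0.66 ± 0.93, adjusted p = 0.780).

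Genes of mature B cells gave 1 call. Since 1.14% of all genes tested were called higher, 1 call in so short a list is not read as a result about it. Of 19 tested, 1 was called higher, the transcription factor Spib (364 and 261 against 11.2 and 10.9; 3.62 ± 0.81, adjusted p = 0.0349, and from 0.113 to 0.197 without LT-HSC array 1 or either MPP array). The median was 0.34, and ran from 0.01 without MPP array 2 and 0.08 without LT-HSC array 1 to 0.54 without LT-HSC array 2 and 0.68 without MPP array 1. Both LT-HSC arrays lay above both MPP arrays for 7 of the 19 and below for 2, against 19.4% and 20.5% of all genes tested. Between the knockout fractions 16 of the 19 had a positive difference, as did 4213 of all 8608 genes tested, and the list's median was 0.64. Ms4a1, which encodes CD20, read 12.0 and 11.5 in LT-HSC and 4.86 and 1.76 in MPP. Cd22, an inhibitory receptor of B cells, read 26.9 and 14.5 against 18.3 and 10.8. The immunoglobulin kappa probe set was highest in MPP array 1, at 4081, with 596 and 1051 in LT-HSC and 333 in MPP array 2; immunoglobulin probe sets share sequence and Igk is reported as uncertain. Summed over the tested pro-B and pre-B genes, the intensity was 28536 and 15952 in LT-HSC and 8602 and 5169 in MPP, and none of the 18 called members was at the floor in LT-HSC. In sorted bulk samples, more cells of a kind and more RNA per cell cannot be told apart, and the part of B-lineage cells within the CD34- gate in these values was not tested.

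The promoters of Cd79a and Igll1 are shown because these genes had the largest positive differences; each runs from 250 bases before to 50 bases after a RefSeq start in build GRCm38.p6, and capitals mark the E-box CAGGTG, or CACCTG on the other strand, that E2A factors (the product of Tcf3) bind. Cd79a lies at chr7:24897247-24897546 on the plus strand and Igll1 at chr16:16863936-16864235 on the minus strand.
Cd79a: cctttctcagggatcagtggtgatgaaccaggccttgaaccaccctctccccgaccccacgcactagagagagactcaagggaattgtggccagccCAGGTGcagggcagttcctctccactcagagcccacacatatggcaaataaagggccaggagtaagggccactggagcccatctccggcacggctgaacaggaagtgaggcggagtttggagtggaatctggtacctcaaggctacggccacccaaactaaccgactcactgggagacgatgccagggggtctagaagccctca
Igll1: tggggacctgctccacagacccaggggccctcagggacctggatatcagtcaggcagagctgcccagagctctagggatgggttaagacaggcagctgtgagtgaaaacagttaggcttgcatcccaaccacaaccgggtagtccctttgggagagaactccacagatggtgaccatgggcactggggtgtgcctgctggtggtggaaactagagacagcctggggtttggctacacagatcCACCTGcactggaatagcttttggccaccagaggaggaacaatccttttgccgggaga
The following motifs were searched on both strands: CAGGTG for E2A, TTGCNNAA for C/EBP and GAGGAAGT for PU.1. In the promoters printed no match overlapped another. The promoter of Vpreb3 was also looked at, held none of these motifs and is not printed. Of the 18 called pro-B and pre-B genes, 13 had a promoter in the table. CAGGTG was in 5 of the 13 (38.5%; Blnk, Cd79a, Igll1, Lef1 and Rag1), against 20.4% of 7037 tested genes and 20.2% of all 32851 promoters. TTGCNNAA was in 2 of the 13 (Il7r and Pou2af1; 15.4%), against 10.4% of tested genes. A match describes the letters of this window and is not a measured binding site.

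**Figure D1:**
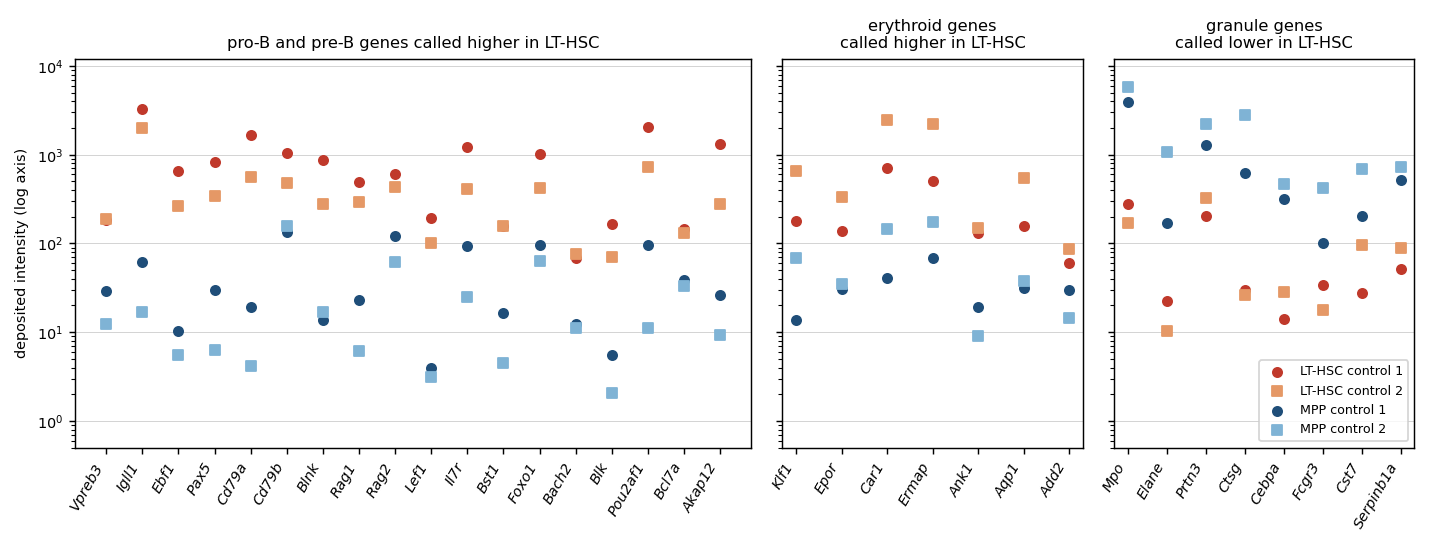
Deposited intensity on a log axis for the called members of 3 gene lists, with 1 point per array (circles, array 1; squares, array 2; red and orange, LT-HSC control; dark and light blue, MPP control). The pro-B and pre-B genes lie higher on the LT-HSC arrays and mostly highest on array 1, the erythroid genes are mostly highest on LT-HSC array 2, and the granule genes lie higher on both MPP arrays.

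The largest group lower in LT-HSC was made of genes of granules and of granulocyte-monocyte commitment. Of 23 tested, 8 (34.8%) were called lower, against 1.18% of all genes tested, and none higher. The median difference was -1.60, from -2.62 to -0.91 over the pairings of arrays. Both LT-HSC arrays lay below both MPP arrays for 17 of the 23, against 20.5% of all genes tested. Mpo, Ctsg, Prtn3 and Cebpa passed in each of the 4 fits that left out an array. Without LT-HSC array 1, 5 members of the list were called, without LT-HSC array 2 there were 9, without MPP array 1 there were 10 and without MPP array 2 there were 4.

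Mpo, which encodes the myeloperoxidase of primary granules, read 277 and 170 in LT-HSC and 3952 and 5854 in MPP, a difference of -4.31 ± 0.50 (adjusted p = 0.00113). Ctsg, the granule protease cathepsin G, had the most negative difference of all genes tested. It read 29.8 and 26.5 against 620 and 2785 and differed by -4.89 ± 0.62 (adjusted p = 0.00197). Prtn3, proteinase 3, was still bright in LT-HSC, at 205 and 327 against 1290 and 2202 (-2.62 ± 0.36, adjusted p = 0.00342). Cebpa, the transcription factor that directs granulocyte-monocyte commitment, read 14.2 and 28.3 against 318 and 462 (-3.46 ± 0.39, adjusted p = 0.00106). Within the MPP pair, array 2 was the higher for these 4 genes.

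Elane, neutrophil elastase, read 22.3 and 10.4 in LT-HSC and 171 and 1063 in MPP (-3.78 ± 0.66, adjusted p = 0.0125), and its adjusted p was 0.0555 without MPP array 2. The other called members were Serpinb1a, a protease inhibitor of granulocytes, Fcgr3, an Fc receptor, and Cst7, a cysteine protease inhibitor. Serpinb1a read 51.3 and 88.6 against 520 and 724 (-2.91 ± 0.59, adjusted p = 0.0229), and its adjusted p lay between 0.0859 and 0.139 without LT-HSC array 1 or either MPP array. Fcgr3 read 33.6 and 17.8 against 101 and 419; its adjusted p was 0.0236 and reached 0.128 without MPP array 2, and it passed only without MPP array 1. Cst7 read 27.5 and 97.2 against 204 and 684; its adjusted p was 0.0331, 0.268 without LT-HSC array 1 and 0.191 without MPP array 2. Ms4a3, a membrane protein of granulocyte-monocyte progenitors, read 92.2 and 75.3 against 207 and 1475 and missed the threshold (adjusted p = 0.0519; 0.0341 with littermate pools as a random block).

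The promoters of Mpo, Prtn3 and Elane are shown because capitals mark the same letters, GAGGAAGT, of the PU.1 type in all 3. Mpo lies at chr11:87793534-87793833, Prtn3 at chr10:79879417-79879716 and Elane at chr10:79886062-79886361, all on the plus strand of GRCm38.p6, with Prtn3 and Elane close together.
Mpo: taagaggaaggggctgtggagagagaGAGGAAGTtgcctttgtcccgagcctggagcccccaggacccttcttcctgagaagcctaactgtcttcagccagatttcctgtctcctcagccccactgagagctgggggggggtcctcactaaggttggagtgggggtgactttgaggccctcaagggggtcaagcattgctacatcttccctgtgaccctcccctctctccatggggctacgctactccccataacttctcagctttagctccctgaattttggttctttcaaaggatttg
Prtn3: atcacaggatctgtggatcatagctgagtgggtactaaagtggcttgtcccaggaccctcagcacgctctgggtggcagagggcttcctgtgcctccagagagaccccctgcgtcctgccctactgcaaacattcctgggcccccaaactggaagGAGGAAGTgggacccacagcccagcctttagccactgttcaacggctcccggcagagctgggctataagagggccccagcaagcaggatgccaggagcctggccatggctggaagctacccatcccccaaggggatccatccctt
Elane: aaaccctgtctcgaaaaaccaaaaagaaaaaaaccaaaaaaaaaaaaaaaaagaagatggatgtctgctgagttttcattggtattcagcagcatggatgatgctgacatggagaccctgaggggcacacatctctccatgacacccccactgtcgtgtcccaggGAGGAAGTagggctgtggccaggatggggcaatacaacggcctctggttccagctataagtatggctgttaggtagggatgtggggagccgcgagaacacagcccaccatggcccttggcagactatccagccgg
The first base of the match lay at -224, -95 and -85 from the start site, in that order. Of the 8 called granule genes, 7 had a promoter in the table and 3 of the 7 (42.9%) held GAGGAAGT, against 3.67% of tested genes and 3.2% of all promoters. TTGCNNAA was in 2 of the 7 (28.6%, Cst7 and Fcgr3), against 10.4% of tested genes. CAGGTG was in 1 (14.3%, Ctsg), against 20.4% of tested genes. None of the 13 promoters of called pro-B and pre-B genes held GAGGAAGT. At a share of 3.67% of tested genes, few or none would fall in 13 promoters, so this is not read as a result.

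Among genes of more mature myeloid cells, 7 were called lower in LT-HSC and none higher, where 1.18% of all genes tested were called lower. All 18 mature granulocyte genes and all 22 monocyte and macrophage genes tested had a negative difference, with medians of -1.14 and -1.23, or -0.72 and -0.57 without MPP array 2. In the first list 4 were called lower (Ncf1, Pglyrp1, Csf3r and Lyz2) and in the second 4 (Lyz2, Emb, Ms4a6c and Mpeg1), and of these 7 genes Emb alone passed in all 4 fits without an array. Emb, a glycoprotein that accompanies monocarboxylate transporters, read 195 and 112 in LT-HSC and 982 and 1521 in MPP (-2.93 ± 0.44, adjusted p = 0.00463). Pglyrp1, a bactericidal granule protein, read 7.03 and 32.8 against 193 and 117 (-2.31 ± 0.42, adjusted p = 0.0131; 0.102 without LT-HSC array 1 and 0.116 without MPP array 1). Mpeg1, a pore-forming protein of macrophages, read 53.9 and 93.4 against 233 and 710 (-2.28 ± 0.41, adjusted p = 0.0128; 0.0889 without LT-HSC array 1 and 0.0607 without MPP array 2). Lyz2, lysozyme, stayed bright on all 4 arrays, at 617 and 376 against 1466 and 1237 (-1.44 ± 0.31, adjusted p = 0.0271), and lost its call with littermate pools as a random block (0.0803), without LT-HSC array 2 (0.0923), without MPP array 1 (0.186) and without MPP array 2 (0.0791).

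Of 16 mast cell, basophil and eosinophil genes, 2 were called lower, against 1.18% of all genes tested. The median was -0.90, or -1.57 without MPP array 1. Prg2, the eosinophil major basic protein, read 9.25 and 8.77 in LT-HSC and 496 and 726 in MPP (-4.61 ± 1.03, adjusted p = 0.0331), and no fit that left out an array called it (adjusted p from 0.0627 to 0.148). Fcer1g, the signalling chain shared by Fc receptors, read 87.0 and 117 against 242 and 522 (-1.66 ± 0.38, adjusted p = 0.0376), and was called only without MPP array 1. Among 13 cytokine receptors of multipotent progenitors 11 had a negative difference and 2 were called, with a median of -0.65, or -1.11 without LT-HSC array 1. Csf2rb, the common chain of the interleukin-3, interleukin-5 and GM-CSF receptors, read 25.3 and 26.4 against 140 and 218 (-2.17 ± 0.43, adjusted p = 0.0201; 0.113 without MPP array 2, 0.0900 without LT-HSC array 1 and 0.0512 without MPP array 1). Csf3r, the G-CSF receptor, read 56.1 and 24.2 against 356 and 145 (-2.13 ± 0.47, adjusted p = 0.0327; 0.0980 without LT-HSC array 2 and 0.286 without MPP array 1).

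The remaining genes lower in LT-HSC in all 4 fits without an array belonged to none of these lists. Ccl9, a chemokine of myeloid cells, had the smallest p of all genes. It read 52.9 and 60.9 in LT-HSC and 840 and 978 in MPP, a difference of -3.67 ± 0.24 (adjusted p = 7.11e-06). Tyrobp, the DAP12 adaptor of myeloid and NK receptors, read 181 and 170 against 941 and 1246 (-2.54 ± 0.34, adjusted p = 0.00320). Rab31, a small GTPase of vesicle transport, read 76.3 and 105 against 501 and 524 (-2.31 ± 0.29, adjusted p = 0.00197). Gstm1, a glutathione transferase, read 71.5 and 107 against 514 and 587 (-2.45 ± 0.35, adjusted p = 0.00366); its probe sets disagreed, with -2.29 for a second and -0.50 and -0.52 for the remaining ones, and family members share sequence. Gria3, a glutamate receptor subunit, read 12.6 and 22.4 against 174 and 423 (-3.13 ± 0.45, adjusted p = 0.00366). Slpi, a secreted inhibitor of leukocyte proteases, and Vldlr, a lipoprotein receptor, were among the 12 most negative differences of called genes. Both lost their call in some fits without an array. In the 4 such fits the Slpi difference ran from -4.13 to -2.17 and the Vldlr difference from -3.93 to -2.12. Slpi read 4.99 and 2.46 against 72.9 and 331 (-3.15 ± 0.60, adjusted p = 0.0183; 0.0809 without LT-HSC array 1 and 0.112 without MPP array 2). Vldlr read 6.24 and 60.5 against 598 and 159 (-3.03 ± 0.66, adjusted p = 0.0312; 0.267 without LT-HSC array 1, 0.277 without MPP array 1 and 0.0652 with littermate pools as a random block).

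Of 25 erythroid genes tested, 7 (28%) were called higher in LT-HSC, against 1.14% of all genes tested. None was called lower, and 18 did not pass. The difference was positive for 20 of the 25 and negative for 5, down to -1.51. Both LT-HSC arrays lay above both MPP arrays for 14 and below for 3, against 19.4% and 20.5% of all genes tested. The median was 1.06, from 0.31 to 1.63 over the pairings of arrays. The median was 0.40 without LT-HSC array 2, 0.44 with a pseudocount of 64 and 0.62 with no filter on dim probe sets. Without LT-HSC array 1, 8 members of the list were called, without LT-HSC array 2 there were 5, without MPP array 1 there were 2 and without MPP array 2 there were 3. Car1, carbonic anhydrase 1, read 700 and 2449 in LT-HSC and 41.1 and 146 in MPP (3.86 ± 0.51, adjusted p = 0.00253) and was called under all 16 processing alternatives. It was the only erythroid gene called in each fit without an array. Ermap, an erythroid membrane protein, read 510 and 2204 against 69.0 and 176 (3.09 ± 0.49, adjusted p = 0.00747; 0.0625 without MPP array 1). Ank1, the ankyrin of the red cell skeleton, was even between the LT-HSC arrays, at 133 and 150 against 19.4 and 9.16 (2.43 ± 0.40, adjusted p = 0.00876; 0.0522 without MPP array 2). Klf1, the erythroid Kruppel-like factor, read 179 and 653 against 13.8 and 69.4 (2.94 ± 0.64, adjusted p = 0.0300; 0.102 without LT-HSC array 2 and 0.274 without MPP array 1).

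Epor, the erythropoietin receptor, read 138 and 335 against 31.0 and 35.4 (2.31 ± 0.46, adjusted p = 0.0211), and Aqp1, a water channel of red cells, read 158 and 542 against 31.9 and 37.3 (2.69 ± 0.53, adjusted p = 0.0202). Both were called only without LT-HSC array 1; for Epor the adjusted p was 0.0715 without LT-HSC array 2, 0.139 without MPP array 1 and 0.0708 without MPP array 2, and for Aqp1 it was 0.0681, 0.131 and 0.0695. Add2, the beta-adducin of the red cell skeleton, read 60.5 and 86.6 against 29.5 and 14.3 (1.28 ± 0.30, adjusted p = 0.0384), lay between 0.0809 and 0.166 without any 1 array, and had an adjusted p of 0.0564 with littermate pools as a random block. Gata1, the erythroid and megakaryocyte transcription factor, read 139 and 587 against 73.0 and 94.7 and did not pass (1.65 ± 0.52, adjusted p = 0.139). Summed over the tested erythroid genes the intensity was 5860 and 14302 in LT-HSC and 6203 and 4239 in MPP, so that the summed level of LT-HSC array 1 lay within the range of the MPP arrays. In the same 14-array fit, Car1 and Ermap were also higher in control myeloid progenitors than in control MPP, by 3.71 (adjusted p = 0.00768) and 3.38 (adjusted p = 0.0100), a comparison that shares the MPP arrays.

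Among 14 megakaryocyte and platelet genes 1 was called higher, Zfpm1, the FOG-1 cofactor of GATA1, at 89.7 and 146 against 18.9 and 33.4 (1.74 ± 0.37, adjusted p = 0.0290; from 0.0727 to 0.229 without either LT-HSC array or MPP array 1). Their median was -0.30, and 0.40 without LT-HSC array 1. Of 22 T and NK cell genes 1 was called higher, the interleukin-2 receptor chain Il2rb, at 44.6 and 120 against 5.95 and 20.8 (1.72 ± 0.37, adjusted p = 0.0295; 0.0968 without LT-HSC array 2 and 0.240 without MPP array 1), with a median of 0.11, or 0.46 without LT-HSC array 1 and 0.40 without MPP array 2. Of 17 dendritic cell and MHC class II genes 1 was called higher, the transcription factor Irf4, at 221 and 56.2 against 14.7 and 2.35 (2.52 ± 0.55, adjusted p = 0.0300; from 0.0961 to 0.245 without LT-HSC array 1 or either MPP array). None of 12 endothelial and stromal genes was called, with a median of -0.38, and 0.06 without LT-HSC array 1. Since 1.14% of all genes tested were called higher, 1 call in lists this short is not read as a result about them.

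The remaining genes higher in LT-HSC in all 4 fits without an array were these. Mt2, a metallothionein that binds zinc and copper, read 499 and 914 in LT-HSC and 39.5 and 48.3 in MPP, a difference of 3.58 ± 0.37 (adjusted p = 0.000528). Chchd10, a protein of the mitochondrial intermembrane space, read 2933 and 2115 against 337 and 447 (2.70 ± 0.27, adjusted p = 0.000528). Septin8, a filament-forming GTPase, read 532 and 642 against 125 and 92.0 (2.31 ± 0.32, adjusted p = 0.00342). These 3 were called under all 16 processing alternatives. Cplx2, a complexin of vesicle fusion, read 786 and 143 against 5.88 and 4.01 (4.12 ± 0.65, adjusted p = 0.00747). Pde2a, a cyclic nucleotide phosphodiesterase, read 543 and 146 against 14.3 and 15.9 (3.33 ± 0.53, adjusted p = 0.00747). C1galt1, the enzyme that extends O-linked glycans, read 702 and 793 against 263 and 288 (1.43 ± 0.23, adjusted p = 0.00747), while its second probe set differed by -0.04.

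Among called genes, another 4 of the 12 largest positive differences lost their call when LT-HSC array 1 or MPP array 2 was left out. Gfra2, a GDNF family receptor, read 2504 and 1748 against 110 and 29.3 (4.82 ± 0.89, adjusted p = 0.0139; 0.0973 without LT-HSC array 1 and 0.0951 without MPP array 2). Pou2af1, a B-cell transcriptional coactivator, read 2047 and 725 against 96.3 and 11.2 (4.46 ± 0.94, adjusted p = 0.0256; 0.203 and 0.152 without these arrays). Akap12, a kinase scaffold, read 1309 and 277 against 26.5 and 9.21 (4.32 ± 0.72, adjusted p = 0.00876; 0.0628 and 0.0569). Sdc4, a heparan sulfate proteoglycan, read 689 and 296 against 37.4 and 10.2 (3.67 ± 0.61, adjusted p = 0.00876; 0.0775 and 0.0638). On all 4 genes LT-HSC array 1 was the higher of its pair and MPP array 2 the lower. Pou2af1 and Akap12 are also among the 18 called genes of the pro-B and pre-B list.

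No gene listed for stem cell identity passed the test. None of 25 stem cell transcription factors and none of 27 stem cell surface and signature genes was called in either direction. Only 2.32% of all genes tested were called, so that few or no calls would fall in lists of this size. Their medians were -0.22 and -0.27. When 1 array was left out the first ran from -0.47 (without MPP array 2) to -0.05 (without MPP array 1), and the second from -1.02 (without LT-HSC array 2) to 0.15 (without MPP array 1). The differences were positive for 7 of the 25 and 10 of the 27. Both LT-HSC arrays lay above both MPP arrays for 1 and for 0 of them, against 19.4% of all genes tested. They lay below both MPP arrays for 7 of the 25 and 6 of the 27, against 20.5% of all genes tested. Hlf, a transcription factor of stem cells, read 128 and 406 in LT-HSC and 1155 and 448 in MPP (-1.58 ± 0.58, adjusted p = 0.205). Procr, the EPCR receptor used to enrich stem cells, read 59.3 and 232 against 749 and 251 (-1.72 ± 0.68, adjusted p = 0.244). Angpt1, a ligand of the Tek receptor, read 44.3 and 457 against 1105 and 442 (-2.07 ± 0.75, adjusted p = 0.203). In all 3 the lowest value was on LT-HSC array 1 and the highest on MPP array 1, while LT-HSC array 2 and MPP array 2 were close.

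Slamf1, the CD150 receptor, was highest on LT-HSC array 2, at 119, with 13.02 on LT-HSC array 1 and 36.5 and 22.3 on the MPP arrays (0.47 ± 0.53, adjusted p = 0.716). Meis1, a homeobox factor, read 21.2 and 62.7 against 71.3 and 40.7, and Gata2, a GATA factor of stem and progenitor cells, read 150 and 898 against 530 and 371, both with overlapping groups. Within the LT-HSC pair, 19 of the 27 surface and signature genes were higher on array 2, with a median of array 1 minus array 2 of -1.17, while within the MPP pair 21 of 27 were higher on array 1. The CD34- gate by its defining markers was therefore borne out for Cd34 itself. No listed stem cell gene was called higher on the arrays labelled LT-HSC, where 1.14% of all genes tested were.

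**Figure D2:**
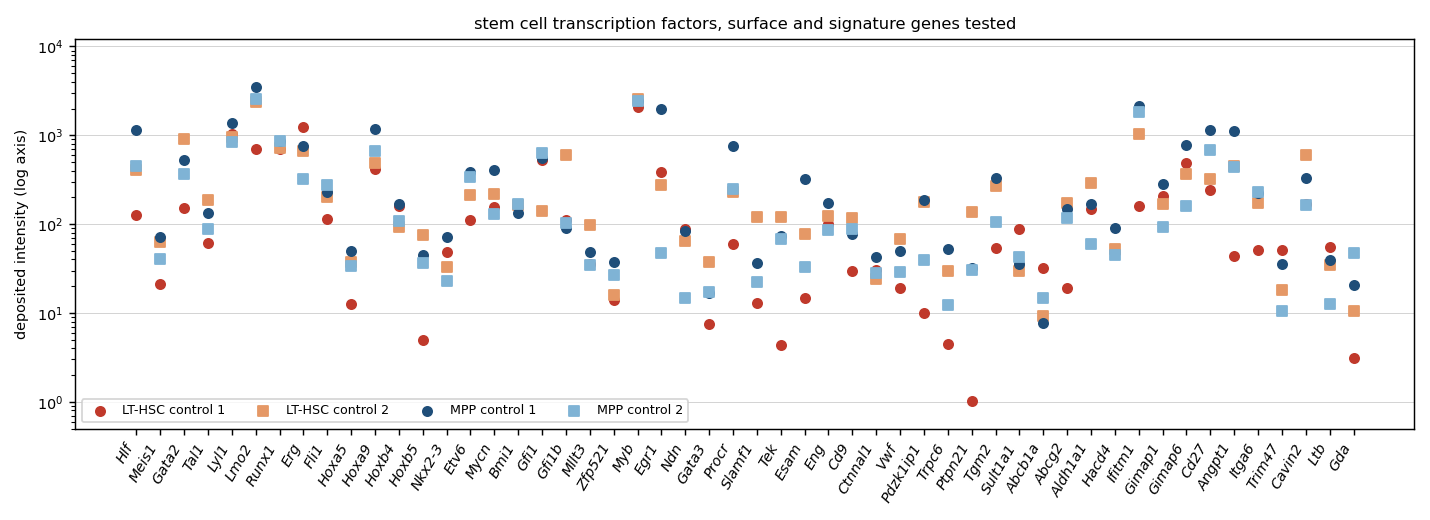
Deposited intensity on a log axis for the tested stem cell transcription factors and surface and signature genes, with 1 point per array (circles, array 1; squares, array 2; red and orange, LT-HSC control; dark and light blue, MPP control). The 4 arrays overlap for most genes, and LT-HSC array 1 is often the lowest.

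Among cell cycle genes there was 1 call, where 2.32% of all genes tested were called. None of 34 mitosis genes passed, although 33 had a positive difference, with a median of 0.47. Both LT-HSC arrays lay above both MPP arrays for 16 of the 34, against 19.4% of all genes tested. Ccna2, cyclin A2, came nearest, at 1627 and 1424 in LT-HSC and 804 and 946 in MPP (0.83 ± 0.21, adjusted p = 0.0585). The list's median lay between 0.23 and 0.88 when any 1 array was left out. It was 1.15 between the arrays numbered 1 and -0.09 between those numbered 2, and it was 0.03 between the knockout fractions. Among 35 DNA replication genes the median was 0.08 (-0.02 without MPP array 1 to 0.22 without MPP array 2), and among 11 cell cycle inhibitors it was 0.46 (0.24 without MPP array 2 to 0.68 without MPP array 1), with no calls in either. Of 12 G1 cyclins and kinases Ccnd3 was the only call.

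Of 19 glycolysis genes 17 had a negative difference, 2 were called lower and the median was -0.67. Over all genes tested 1.18% were called lower. Pgam1, phosphoglycerate mutase, read 1045 and 1074 in LT-HSC and 1949 and 2317 in MPP, the smaller spread of both called members (-0.93 ± 0.17, adjusted p = 0.0128; 0.0794 without MPP array 2). Ldhb, a lactate dehydrogenase subunit, read 25.6 and 148 against 668 and 299 (-2.49 ± 0.55, adjusted p = 0.0312; 0.251 without LT-HSC array 1 and 0.273 without MPP array 1). None of 52 oxidative phosphorylation genes was called, and their median was 0.00 with 26 on each side, and from -0.33 without LT-HSC array 2 to 0.17 without LT-HSC array 1. None of 32 ribosome biogenesis genes was called either (median 0.21, from 0.05 without MPP array 1 to 0.33 without MPP array 2). Of 24 protein folding genes of the endoplasmic reticulum 1 was called lower, the disulfide isomerase P4hb, at 463 and 627 against 1076 and 1599 (-1.26 ± 0.25, adjusted p = 0.0203; 0.132 without LT-HSC array 1 and 0.128 without MPP array 2), with a median of -0.33, or -0.67 without MPP array 1 and -0.04 without MPP array 2.

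Signalling and adhesion genes gave few calls. With 2.32% of all genes tested called, 1 call in lists this short is not read as a result about them. In the TGF-beta and BMP list 1 of 18 was called, the helix-loop-helix inhibitor Id3, at 177 and 49.2 in LT-HSC and 16.1 and 4.74 in MPP (2.17 ± 0.47, adjusted p = 0.0307; from 0.108 to 0.237 without LT-HSC array 1 or either MPP array). In the Notch and Wnt list Lef1 was the only call of 20. In the adhesion and niche list 1 of 24 was called, the adhesion molecule Alcam, at 4.13 and 26.2 against 220 and 108 (-2.54 ± 0.45, adjusted p = 0.0128; 0.0973 without LT-HSC array 1 and 0.112 without MPP array 1). None of 11 genes of the DNA methylation machinery was called, and Dnmt1, intact in these mice, read 2219 and 1818 in LT-HSC and 1518 and 1596 in MPP (0.37 ± 0.26, adjusted p = 0.535).

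**Figure D3:**
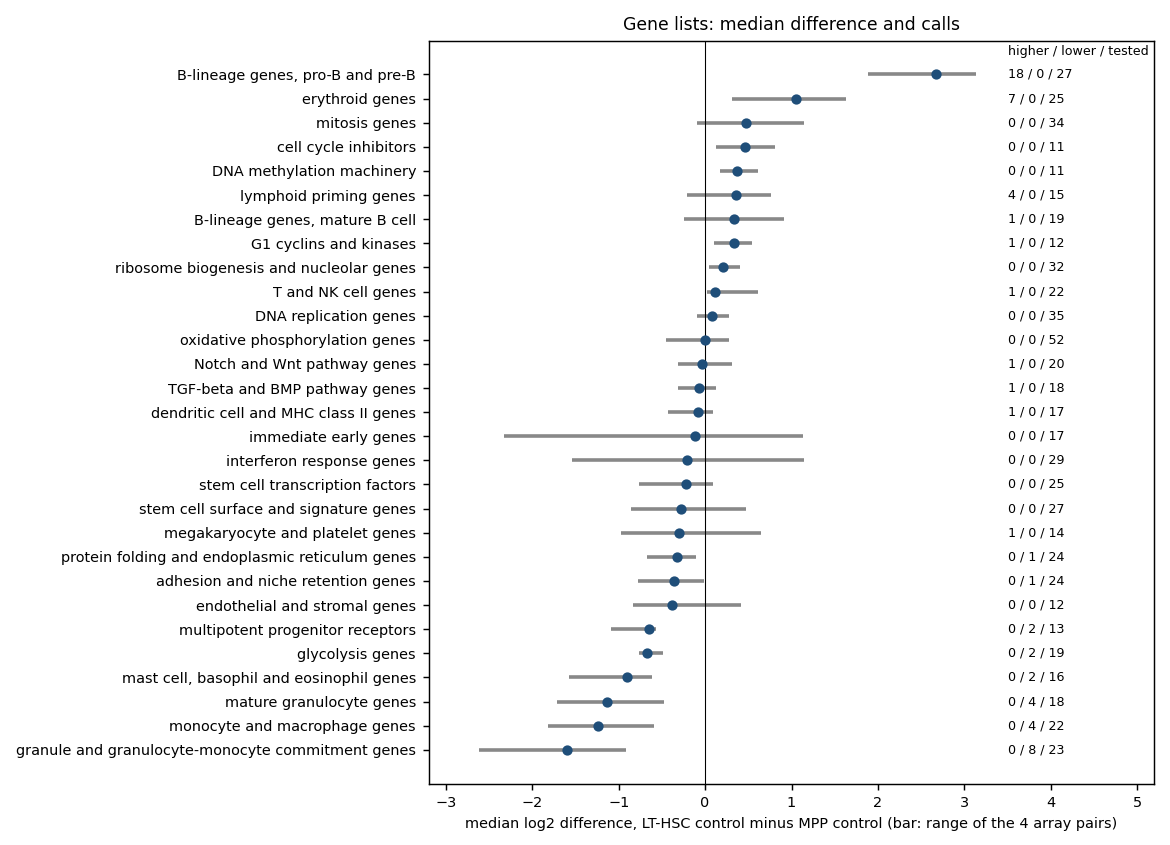
Median log2 difference of each gene list with at least 5 tested members, LT-HSC control minus MPP control (points), with the range of the list median over the 4 pairings of arrays (bars); the numbers at the right are members called higher, called lower and tested. The pro-B and pre-B list has the highest median of those drawn (2.67) and the granule list the lowest (-1.60), and the longest bars belong to immediate early and interferon response genes.

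Interferon and immediate early genes varied with the replicate number in both sorted fractions. None of 29 interferon response genes and none of 17 immediate early genes was called between the fractions, against 2.32% of all genes tested. Irf7, the master factor of the interferon response, read 18.1 and 582 in LT-HSC and 35.5 and 453 in MPP. Oas1a, an antiviral enzyme, read 114 and 1405 against 199 and 1112. On both genes the arrays numbered 2 were high in both fractions. Over the list, 27 of 29 genes in LT-HSC and 28 of 29 in MPP were higher on array 2, with medians of array 1 minus array 2 of -1.42 and -1.25.

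Immediate early genes, which respond within minutes to stimulation, ran the other way. Fos read 349 and 1.24 in LT-HSC and 2192 and 22.4 in MPP, and Jun read 1396 and 152 against 2300 and 81.7. Of 17 genes, 14 in LT-HSC and 17 in MPP were higher on array 1, with medians of 1.21 and 2.50. The knockout arrays showed the same order, with medians of -1.08 and -1.0002 for the interferon genes and 0.86 and 0.83 for the immediate early genes, in LT-HSC and MPP. The labels tie a number to littermates of both genotypes and do not say whether it is shared by the fractions, and no handling date was used. Summed over the list, interferon genes gave 6450 and 16560 in LT-HSC and 9719 and 16021 in MPP.

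**Figure D4:**
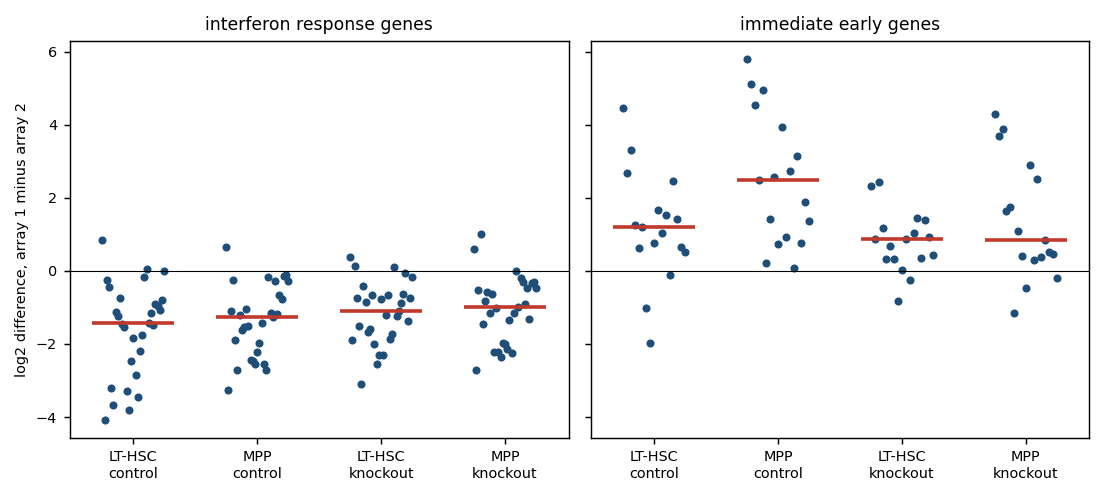
Log2 difference between array 1 and array 2 within each of 4 groups for the tested interferon response genes (left) and immediate early genes (right), with 1 point per gene and a red line at the median. Interferon genes lie mostly below 0 (medians -1.42 to -1.0002) and immediate early genes mostly above 0 (medians 0.83 to 2.50) in all 4 groups.

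The same step was measured a second time between the knockout fractions. Those arrays are other samples but come from littermates of the control pools, and deviations from the group means of same-numbered control and knockout arrays correlated at 0.465 in LT-HSC and 0.595 in MPP, so they are not a fully independent repeat. Of the 200 genes, 193 had the same direction in the knockouts, as did 6081 of all 8608 genes tested, and 33 also passed. In all, 44 genes (0.511% of those tested) passed there, 25 higher (0.29%) and 19 lower (0.221%), and 873 (10.1%) had an unadjusted p under 0.05. The 98 genes higher in control LT-HSC had a median of 2.17 in the controls, which chose them, and 1.31 in the knockouts. For the 102 lower genes the medians were -1.75 and -1.07. Of the pro-B and pre-B list 7 were called higher between the knockout fractions, with a median of 1.87, and of the granule list 7 were called lower, with a median of -1.79. Ccl9 differed by -3.16 there (adjusted p = 4.62e-05), Chchd10 by 2.33 (adjusted p = 0.00174), Blnk by 3.31 (adjusted p = 0.0151), Mpo by -3.52 (adjusted p = 0.00926) and Ctsg by -5.79 (adjusted p = 0.00131). Car1 differed by 1.44 and was not called (adjusted p = 0.339). Of the 25 erythroid genes 1 was called higher between the knockout fractions, and the median of that list was 0.63.

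No gene passed the test of whether the step differed between genotypes in the limma fit without a block, where 260 genes had an unadjusted p under 0.05 (3.02%). With littermate pools as a random block, 2 genes passed, Rhoc and Ankrd33b. Rhoc, a small GTPase of the cytoskeleton, differed by -0.64 between the control fractions and by 2.57 between the knockout fractions (adjusted p of the difference 0.0373, against 0.841 without the block). Ankrd33b differed by 1.65 and -0.45 (adjusted p 0.0411, against 0.922). Both were bright in 1 group only. Rhoc read 293 and 109 on the LT-HSC knockout arrays and at most 23.7 elsewhere. Ankrd33b read 65.9 and 74.1 on the LT-HSC control arrays and at most 17.3 elsewhere. The count of 44 calls between the knockout fractions was 10 without LT-HSC knockout array 1, 277 without LT-HSC knockout array 2, 24 without MPP knockout array 1 and 7 without MPP knockout array 2.

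**Figure D5:**
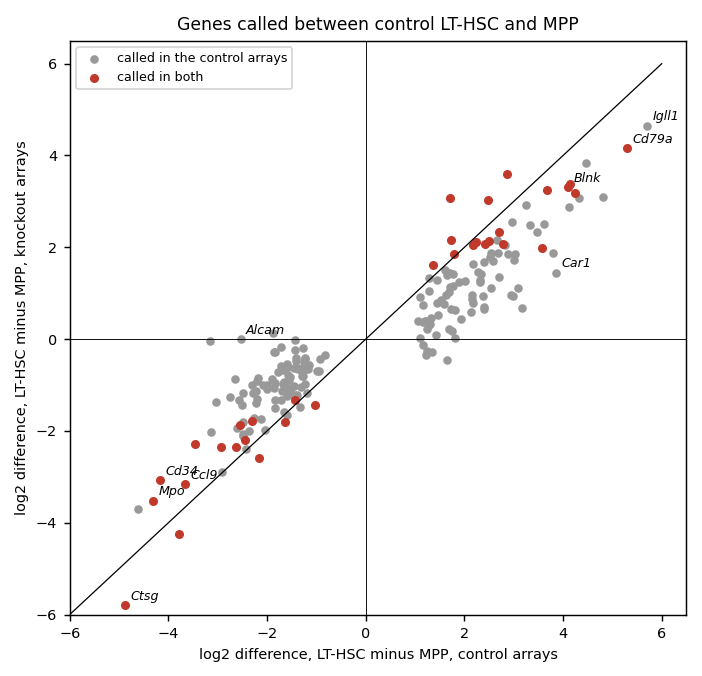
Log2 difference LT-HSC minus MPP in the knockout arrays (y axis) against the control arrays (x axis) for the 200 genes called in the controls, with genes also called in the knockouts in red and the line of equal values. Of the 200, 193 have the same sign on both axes, and most lie nearer to 0 on the knockout axis; the genes were chosen on the x axis.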

How the data were processed

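The authors deposited 1 table of linear array intensities for 14 Affymetrix arrays; the sources used here do not give how they were summarised and scaled. Of 22690 probe sets, 64 controls were removed, 20380 had 1 gene symbol in GEO's platform annotation, 691 had several and 1555 none. Values were taken as log2(intensity + 16) and quantile normalized. Probe sets above the 40th percentile on at least 2 arrays were kept, and the brightest stood for its gene. limma 3.58.1 in R 4.3.3 fitted 6 group means over 14 arrays (lmFit, eBayes with trend), with Benjamini-Hochberg adjustment over 8608 genes at 0.05. An array's depth has no count, so that array number sets the precision, and where a group is near the floor the size of a difference depends on the pseudocount.

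Named genes were the sort markers, the 12 largest differences in each direction, members of lists (called first, then by p) and up to 10 genes of the difference of steps; genes in all 4 leave-one-out fits were added after their values were seen. Members and lists were chosen with earlier results of these data known. Alternatives were the pseudocount, scaling, filter, probe-set rule, trend, arrays fitted, blocks and leaving out each array. Per the labels, in the growth protocol, control and knockout samples of a replicate are littermates; deviations of same-numbered pairs correlated at 0.204 to 0.613. Across fractions no label ties the numbers. The pools are named biological replicates. Promoters are RefSeq's. Python 3 drew the figures.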

Additional observations from a re-analysis of the deposited data

Results flagged for a closer look

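The following genes passed the test of whether the LT-HSC minus MPP step differed between genotypes, with littermate pools as a random block in limma. For Rhoc the step in the knockouts was 3.20 above the step in the controls (adjusted p = 0.0373). For Ankrd33b it was -2.11 (adjusted p = 0.0411). With all arrays neither passed without the block. Rhoc read 293 and 109 on the LT-HSC knockout arrays and at most 23.7 on every other array. Ankrd33b read 65.9 and 74.1 on the LT-HSC control arrays and at most 17.3 on every other array. Each gene was thus bright in 1 group only, with the rest near or under the pseudocount of 16, and a genotype difference is not established. Rhoc also passed without the block when LT-HSC knockout array 2 was left out (3.95, adjusted p = 0.0166).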

How the results depend on the processing

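Without a replicate block 200 genes differed between the control fractions. With the replicate number as a block there were 157, and with littermate pools as a random block (correlation 0.502) 178; across fractions same-numbered control arrays deviated together at only 0.138. Of the named genes, Vldlr, Bcl7a, Add2, Lyz2 and Ldhb lost their call with the number as a block (adjusted p from 0.0515 to 0.0678) and Vpreb1 gained it (0.0289). The random block raised the genes whose step differed by genotype from 0 to 2 and left the knockout count within 1.5 times of 44. Pseudocounts of 1 and 64, other scaling, filters, probe-set averaging and no trend gave 167 to 212 calls. Fitted on the LT-HSC and MPP arrays only, the counts were 11 in all, 6 higher and 5 lower for the controls and 2 for the knockouts. With control arrays only they were 88, 52 and 36, and with knockout arrays only 19. A pseudocount of 1 left 29 knockout calls. Leaving out 1 array gave 78 to 422 control calls (34 to 194 higher, 24 to 228 lower), 7 to 277 knockout calls and 0 to 4 genes whose step differed. Those 4, without LT-HSC knockout array 2, were Rhoc, Serac1, Them4 and Tnf, and the 1 without MPP knockout array 2 was Dgke. Chosen after seeing the data, the arrays numbered 1 alone gave 369 calls (173 higher, 196 lower) and those numbered 2 alone 50 (19 and 31), with 1 array a group and the spread taken from the other groups. Kit turned from -0.88 to 0.062 with the arrays numbered 2 alone, and neither value passed. The cause was not tested. Of 1312 values for 73 named genes under alternatives, 1031 kept direction and call, 266 lost the call, 14 gained it and 1 turned. The pro-B list is bounded by the array floor: many MPP values lie under the pseudocount.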
